A study of Mus musculus with 3 samples.

Results

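Constant, not broad H3K27ac regions at gene ends were examined in 3 MIN6 clones. Peaks of the 3 deposited lists that touched or overlapped were merged, and a merged region was kept where it held a peak in all 3 lists, lay within 1 kb of an end of a protein-coding gene and held no wild-type peak of 1500 bp or wider. The rule chose 10846 of 52938 merged regions (20.5%), and they are called members below. They were chosen on the peak calls and widths themselves, so that their presence in all 3 lists and their wild-type width are the rule and not a result. The label calls them promoter regions, and of the 8940 members at genes with a known strand, 8787 (98.3%) lay within 1 kb of a gene start and 153 (1.71%) only at a 3′ end. For the other 1906 members the strand of the gene was not known here.

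MIN6 cells come from a mouse insulinoma, a tumour of insulin-producing cells, and stand in culture for pancreatic beta cells. As the labels describe, cells carrying a Cas9 lentivirus received a second lentivirus with a guide RNA against Arid1a, and single-cell clones were sorted by PCR genotyping and ARID1A Western blot into Arid1a homozygous knockout, Arid1a heterozygous knockout and wild type. Arid1a encodes ARID1A, a subunit of SWI/SNF, a complex that moves nucleosomes, and the series concerns Arid1a loss, beta cell regeneration and EGF signalling. Each genotype had 1 H3K27ac ChIP-seq library from 1 clone, so that genotype, clone and library cannot be told apart and no test across samples was possible. The lists held 34298 homozygous, 31365 heterozygous and 41490 wild-type peaks over 20.2, 17.5 and 25.1 Mb. The lowest local background that could be recovered from each list was 1.73, 1.73 and 2.17 reads, so the wild-type list was about 1.25 times as deep as the heterozygous one by this measure, and depth and genotype cannot be told apart either. In a bulk culture, fewer cells with the mark and less of the mark per cell also cannot be told apart.

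H3K27ac, acetylation of lysine 27 on histone H3, is placed by the acetyltransferases p300 and CBP on nucleosomes next to active promoters and enhancers. At an active promoter the start itself is usually cleared of nucleosomes for the transcription machinery, and the acetylated nucleosomes flank it. Promoters of widely used genes are typically rich in CpG dinucleotides and carry short sites for factors such as Sp1 (the GC box), NF-Y (the CCAAT box), ETS factors, NRF1 and YY1, whereas a TATA box is more typical of strongly regulated genes and of histone genes.

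Promoter windows of 8 members, picked by rank and by the motifs they hold, are printed first as examples. Each runs from 250 bases before to 50 bases after the listed gene start, 5′ to 3′ on the strand of the gene, from RefSeq on GRCm38.p6, the assembly of mm10. Capitals mark matches to the motifs spelled out further on. Of 21887 protein-coding genes, 17492 had such a window. Cmss1, Gorab and Aldh4a1 are among the members with the highest fold enrichment in all 3 lists. Their windows are chr16:57606818-57607117 on the minus strand, chr1:163403620-163403919 on the minus strand and chr4:139622644-139622943 on the plus strand.
Cmss1: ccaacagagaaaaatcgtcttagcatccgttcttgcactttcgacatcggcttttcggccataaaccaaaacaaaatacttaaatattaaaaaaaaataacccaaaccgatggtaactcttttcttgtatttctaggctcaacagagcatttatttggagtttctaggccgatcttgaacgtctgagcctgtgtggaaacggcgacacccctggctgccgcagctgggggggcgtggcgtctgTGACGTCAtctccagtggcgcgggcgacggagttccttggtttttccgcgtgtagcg
Gorab: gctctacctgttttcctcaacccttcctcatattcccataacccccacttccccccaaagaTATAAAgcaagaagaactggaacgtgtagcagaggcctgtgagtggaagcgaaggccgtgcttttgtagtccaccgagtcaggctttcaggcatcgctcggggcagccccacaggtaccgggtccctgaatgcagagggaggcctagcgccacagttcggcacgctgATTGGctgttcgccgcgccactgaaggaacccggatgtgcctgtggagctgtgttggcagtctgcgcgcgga
Aldh4a1: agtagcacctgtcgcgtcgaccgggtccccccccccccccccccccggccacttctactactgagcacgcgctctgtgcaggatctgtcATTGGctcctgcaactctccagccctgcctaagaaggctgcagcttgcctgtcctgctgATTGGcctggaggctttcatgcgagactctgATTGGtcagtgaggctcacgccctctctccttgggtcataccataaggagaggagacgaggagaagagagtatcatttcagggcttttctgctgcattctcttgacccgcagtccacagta
The Cmss1 window holds a CRE match just before the start, the Gorab window 1 CCAAT box and 1 TATA match far from the start, and the Aldh4a1 window 3 CCAAT boxes. Uchl3, Zfp868 and Zfp433 are the highest-ranked further members with a GC box, a CCAAT box and an ETS motif. These windows are chr14:101653717-101654016 (plus), chr8:69625499-69625798 (minus) and chr10:81704575-81704874 (plus).
Uchl3: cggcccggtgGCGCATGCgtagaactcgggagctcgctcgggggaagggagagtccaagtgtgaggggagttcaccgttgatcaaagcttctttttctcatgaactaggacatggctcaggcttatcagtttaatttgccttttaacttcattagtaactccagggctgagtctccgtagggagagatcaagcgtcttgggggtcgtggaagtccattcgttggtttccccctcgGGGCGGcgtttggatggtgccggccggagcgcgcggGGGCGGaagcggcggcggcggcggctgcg
Zfp868: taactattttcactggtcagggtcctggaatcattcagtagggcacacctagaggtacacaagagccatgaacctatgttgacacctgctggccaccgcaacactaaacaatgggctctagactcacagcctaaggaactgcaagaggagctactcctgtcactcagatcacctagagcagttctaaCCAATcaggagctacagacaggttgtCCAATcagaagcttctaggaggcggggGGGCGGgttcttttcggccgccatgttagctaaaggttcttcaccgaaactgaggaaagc
Zfp433: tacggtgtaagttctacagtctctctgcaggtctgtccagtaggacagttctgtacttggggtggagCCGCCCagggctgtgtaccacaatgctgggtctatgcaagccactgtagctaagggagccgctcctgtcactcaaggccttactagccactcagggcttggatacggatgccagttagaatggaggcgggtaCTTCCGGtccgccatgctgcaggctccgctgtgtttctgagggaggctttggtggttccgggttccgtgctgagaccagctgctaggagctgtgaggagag
Zfp317 is the highest-ranked member with a TATA box at the usual distance from the start, and Rab3gap1 the highest-ranked with a YY1 motif after the start. These windows are chr9:19621841-19622140 (plus) and chr1:127868523-127868822 (plus).
Zfp317: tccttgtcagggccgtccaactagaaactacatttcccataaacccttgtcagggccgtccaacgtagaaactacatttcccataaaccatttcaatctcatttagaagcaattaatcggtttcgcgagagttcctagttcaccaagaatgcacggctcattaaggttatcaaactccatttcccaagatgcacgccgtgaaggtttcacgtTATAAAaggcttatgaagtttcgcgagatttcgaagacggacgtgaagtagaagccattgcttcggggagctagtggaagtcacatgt
Rab3gap1: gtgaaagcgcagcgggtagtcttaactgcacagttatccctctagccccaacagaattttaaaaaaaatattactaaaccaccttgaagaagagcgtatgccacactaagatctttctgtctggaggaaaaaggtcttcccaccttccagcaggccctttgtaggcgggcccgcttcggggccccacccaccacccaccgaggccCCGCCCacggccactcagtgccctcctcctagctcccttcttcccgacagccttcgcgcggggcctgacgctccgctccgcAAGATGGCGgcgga
The 8 windows had a GC content of 44.7% (Zfp317) to 60.0% (Uchl3). Their CpG ratio, observed over expected from the C and G content, was 0.312 in Zfp868 and 1.18 in Cmss1. Only Gorab, Uchl3 and Rab3gap1 had both a ratio of at least 0.6 and a GC content of at least 50%, as 78.7% of member starts did. All 8 windows were below the median GC content of member starts, 61.7%. The examples are therefore not typical of members in CpG content.

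The members made up 69.8% of the 15542 merged regions at gene ends. Of all gene-end regions, 73.9% had a peak in all 3 lists, against 21.5% of the 37396 regions away from gene ends. A member was present at 9429 protein-coding genes, 43.1% of all. Of these genes, 6095 had 1 member, 3061 had 2 and 273 had 3 or more, and 117 also had a constant region that was broad in wild type. Of the 10846 members, 2161 (19.9%) lay at ends of at least 2 genes. At the limits of the rule stood Rbm12b1 and Arpin, whose widest wild-type peak was 1499 bp, and outside it Vdac2 and Cdk17 at 1500 bp. Members at Arid1b and Ktn1 lay 1000 and 998 bp from the nearest gene end, and constant regions near Msl1 and Myo1c lay just outside, at 1002 and 1003 bp.

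Summits lay beside the gene start, mostly downstream, while the start itself was inside a peak at about as many genes as not. Over the 7188 gene starts with a member and a promoter window, the start itself lay inside a peak in 52.9% of cases in the homozygous, 50.2% in the heterozygous and 54.2% in the wild-type list. Summits lay a median of 150, 149 and 160 bp downstream of the start, in the same order of lists, and 62.5%, 62.3% and 62.7% of them were downstream. Only 4.43%, 4.38% and 3.51% of summits were within 100 bp of the start. A single member covering the start was the layout at 3480 starts (48.4%). At 989 starts (13.8%) a member covered the start and another lay upstream, at 145 (2.02%) another lay downstream, and at 19 there was one on each side. At 1247 starts (17.3%) a member upstream and another downstream left the start uncovered, at 1013 (14.1%) there was only a downstream member, and at 295 (4.10%) only an upstream one.

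Peak coverage upstream of the start differed with the neighbouring gene. At 5550 starts without a head-to-head partner, peak coverage was highest 200 bp downstream in both knockouts (94.1% of starts in homozygous, 92.6% in heterozygous) and 250 bp downstream in wild type (94.7%). In these starts 67.0%, 66.9% and 67.3% of summits were downstream in homozygous, heterozygous and wild-type lists. At 1211 starts whose upstream neighbour within 1 kb was a protein-coding gene running the other way, the shares were 47.1%, 47.0% and 47.2%, close to an even split. A summit within 1 kb of both starts of a pair was counted at each start. One beyond either start is then downstream of its own gene and upstream of the partner, and one between the starts is upstream of both. The nearly even split therefore follows largely from the counting and cannot be set against the share without a partner. Summits can belong to the partner gene in a head-to-head pair, so the shares describe pairs and not single promoters.

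**Figure D1:**
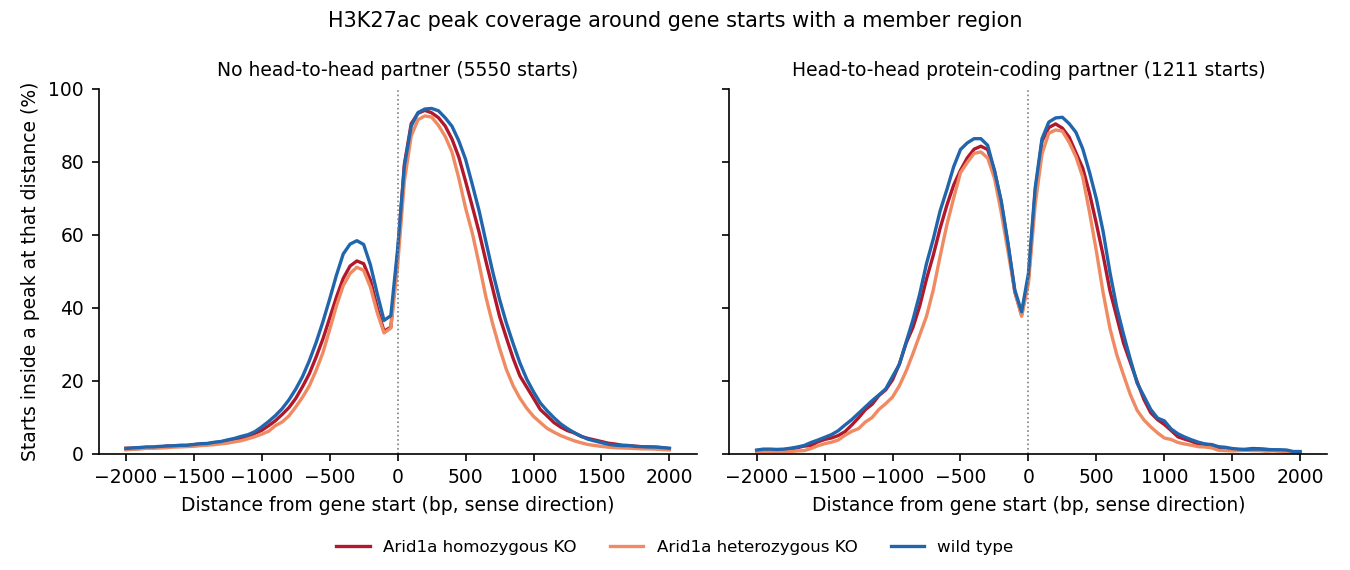
Share of gene starts that lie inside an H3K27ac peak (vertical axis, %) at each distance from the start (horizontal axis, bp, positive in the direction of transcription), by library, for starts without a head-to-head partner (left) and with a protein-coding one (right). All 3 lists dip just before the start, and the left panel peaks 200 to 250 bp downstream, at 92.6% to 94.7% of starts, with an upstream maximum of only 51.1% to 58.4%, whereas in the right panel the upstream maximum is 82.7% to 86.4% and the downstream one 88.8% to 92.2%.

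Head-to-head pairs were frequent among the members. A protein-coding partner was found at 16.8% of member starts (Wilson 95% interval 16% to 17.7%), against 2.15% of starts whose gene-end region was missing from 1 or 2 lists, 0.693% of starts with no region within 1 kb and 8.04% of all 17492 starts. Starts with a constant region that was broad in wild type had 19.9% (16.8% to 23.3%). A lncRNA partner was listed at 5.94% of member starts and 4.22% of all starts.

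Members sat at CpG-rich starts. The median GC content of their windows was 61.7%, against 48.3% for starts with no region and 56.3% for all starts. The median CpG ratio was 0.81 at member starts, 0.83 at starts broad in wild type, 0.63 at starts with a region in only 1 or 2 lists and 0.21 at starts with none. Windows with a ratio of at least 0.6 and a GC content of at least 50% were called CpG-rich. They were 78.7% of member starts (77.8% to 79.7%), 78.6% of broad starts (75.1% to 81.7%), 50.6% of starts in only 1 or 2 lists, 11.0% of starts with no region and 45.8% of all starts. Within the members the CpG ratio went little with the peaks: its Spearman correlation over 7188 starts was 0.11, 0.13 and 0.08 with the widest peak in homozygous, heterozygous and wild-type lists and -0.03, 0.03 and -0.04 with the rank by fold. These are descriptions across regions of the same libraries.

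The commonest motif was the GC box (GGGCGG or its reverse complement CCGCCC, the core of the Sp1 site), present in 69.7% of member starts against 46.3% of all starts. The ETS motif (CCGGAAG or CTTCCGG) was present in 22.1% against 11.9%, with 17.6% at broad starts and 2.84% at starts with no region. NRF1, a regulator of nuclear genes for mitochondria, binds GCATGCGC (GCGCATGC), which was present in 6.71% against 3.61%. The YY1 motif (AAGATGGCG or CGCCATCTT) was present in 3.99% against 1.92%, with 0.189% at starts with no region. The CRE, the site of CREB (TGACGTCA), was present in 4.08% against 2.33%, and the E-box (CACGTG) in 10.9% against 7.91%. ZBTB33, a zinc finger factor, has the motif CTCGCGAG (2.28% against 1.31%), and ZNF143 the motif TACAATTCC or GGAATTGTA (0.988% against 0.549%). All motifs were sought on both strands, and 1.21% of matches at member starts shared a base with a match of another motif. A match is a description of the window and not a bound site, and base composition differs between the classes of start.

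The CCAAT box (CCAAT or ATTGG) stood apart from the others. It was present at 41.5% of member starts and 39.2% of all starts, but at only 27.1% of starts broad in wild type (23.6% to 30.8%). Where a member region covers the start itself, the share was 36.5%, below that of all starts. 4 motifs were rarer at member starts than at all starts. The TATA motif (TATAAA or TTTATA) was present in 5.86% against 13.3%, and in 22.0% of starts with no region. The AP-1 motif (TGACTCA or TGAGTCA) had 2.66% against 4.56%, the FOX motif (TGTTTAC or GTAAACA) 2.16% against 2.93%, and the homeobox core TAATTA 2.07% against 4.69%.

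Motifs also had their own places. Matches at member starts had a median position of -29 for ETS, -59.5 for the GC box and -83 for the CCAAT box, in bases from the start. YY1 matches had a median of 15 bases after the start, as in the Rab3gap1 window shown above. AAGATGGCG in the sense direction after the start was found at 166 member starts (2.31%) and at 5 of 7932 starts with no region (0.063%). A sense TATAAA at 40 to 20 bases before the start, as at Zfp317, was found at 47 member starts (0.654%) and at 398 starts with no region (5.02%). Starts with a YY1 motif (287) had a median rank by fold, defined below, of 69.6, 76.5 and 73.0 in homozygous, heterozygous and wild-type lists, against 59.1, 60.5 and 59.6 for all CpG-rich member starts. The 149 starts with the homeobox core, rare among members, had medians as high, at 71.9, 71.7 and 75.5, so a high rank did not belong to YY1 alone.

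**Figure D2:**
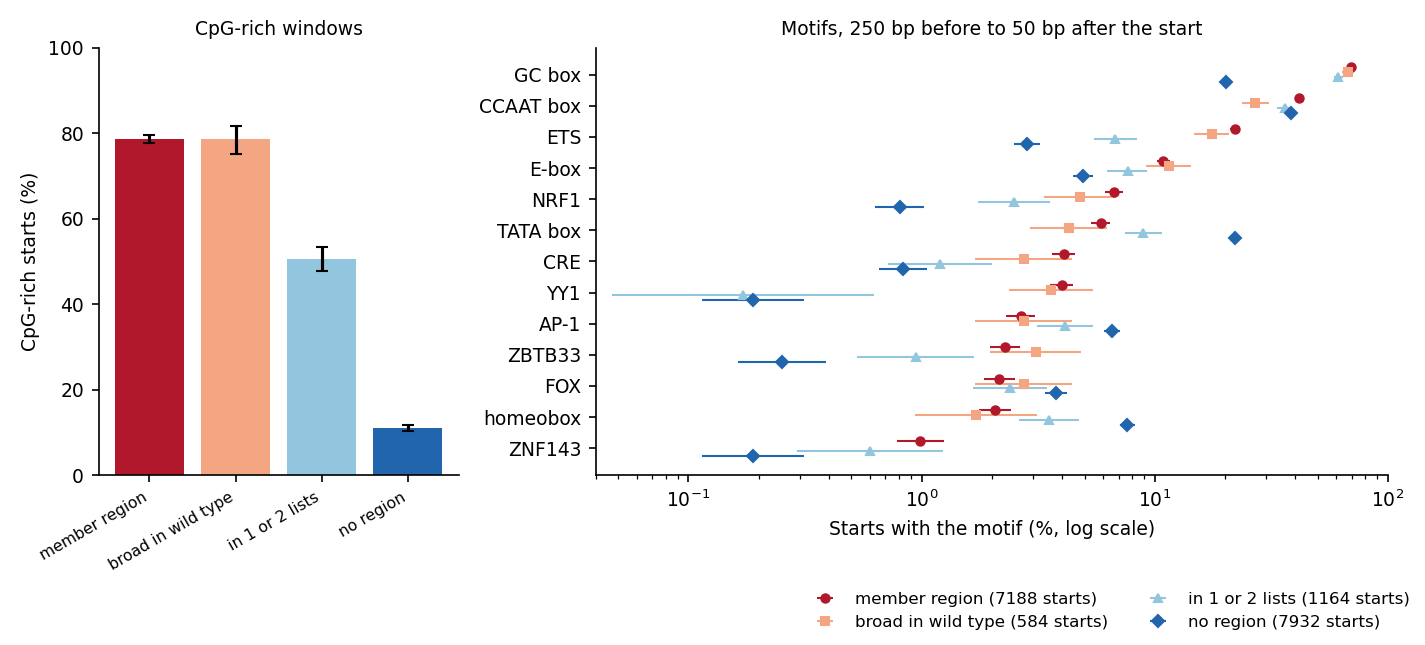
Share of CpG-rich promoter windows (left, bars) and of windows with each motif (right, points, log scale) at starts with a member, with a constant region broad in wild type, with a region in only 1 or 2 lists and with no region; error bars are 95% Wilson intervals, which cover counting error only. Members and broad starts are alike in CpG-rich windows (78.7% and 78.6%), and members are above starts with no region for the GC box, ETS, E-box, NRF1, CRE, YY1, ZBTB33 and ZNF143 and below them for TATA, AP-1, FOX and homeobox; ZNF143 at broad starts was 0 of 584 and is not drawn.

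The genes with members included nearly the whole basal machinery of the cell. A member was found at 28 of 28 RNA polymerase subunits, 38 of 40 complex I subunits of the respiratory chain, 73 of 78 mitochondrial ribosomal proteins, 46 of 50 core spliceosome genes and 34 of 38 replication genes (MCM, GINS, ORC, RFC and polymerases), all above the 43.1% of all protein-coding genes. Cytosolic ribosomal proteins had 76 of 88, Mediator subunits 29 of 32, proteasome subunits 32 of 39, aminoacyl-tRNA synthetases 31 of 35, the anaphase-promoting complex 14 of 16 and Fanconi anaemia genes 9 of 10. Replication-dependent histone genes had 58 of 62. In all, 29 of 37 gene lists had a share above that of all genes, among them the beta cell markers at only 44.4%.

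The genes of these lists without a member were of several kinds, and no theme was tested. Of the 9 genes of complexes II to V with no member, 6 were Cox6a2, Cox6b2, Cox7a1, Cox7b2, Cox8b and Cox8c, isoforms known from muscle or testis, and the others were Cox5a, Cox7a2 and Uqcrh. The proteasome genes without one included Psma8, known from testis, Psmb11, from thymus, and Psmb9, an immunoproteasome subunit, beside Psma6, Psma7, Psmd10 and Psmd13. For the V-ATPase, the proton pump of acidic organelles, they included Atp6v0a4, Atp6v1b1 and Atp6v1g3, isoforms known from kidney, beside Atp6v0d2, Atp6v1c2, Atp6v1e2 and Atp6v1fnb. The 12 cytosolic ribosomal protein genes without one were the testis paralogs Rpl10l and Rpl39l and also Rpl10a, Rpl17, Rpl19, Rpl32l, Rpl35a, Rpl39, Rpl7, Rps2, Rps27l and Rps27rt. Widely used genes were likewise without one in other lists, such as Orc1, Orc4, Orc6 and Rfc1 of replication, Med10 and Med18 of Mediator and Sf3a2 and Snrpb of the spliceosome. Some had a constant region that was broad in wild type in place of a member. Among them were 4 of the 12 ribosomal, 3 of the 7 proteasome and 3 of the 4 spliceosome genes, and 6 autophagy genes. Histone genes without one were H2ac1, H2bc1, H4c11 and H4c4, of which H2ac1 and H2bc1 are testis variants.

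Genes of other lineages were nearly without members. None was found at 39 Hox genes, 9 markers of alpha, delta, PP and epsilon cells or 12 mesenchymal, immune and endothelial markers. There were 2 at 1459 olfactory and vomeronasal receptor genes (Vmn1r4 and Vmn2r29), 3 at 109 keratin and keratin-associated genes (Krt7, Krt8 and Krt10) and 1 at 11 acinar and duct markers (Krt7, a duct keratin, with the region at its 3′ end). The allowance for 0 of 39 is a share of up to 8.97% by the Wilson interval.

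**Figure D3:**
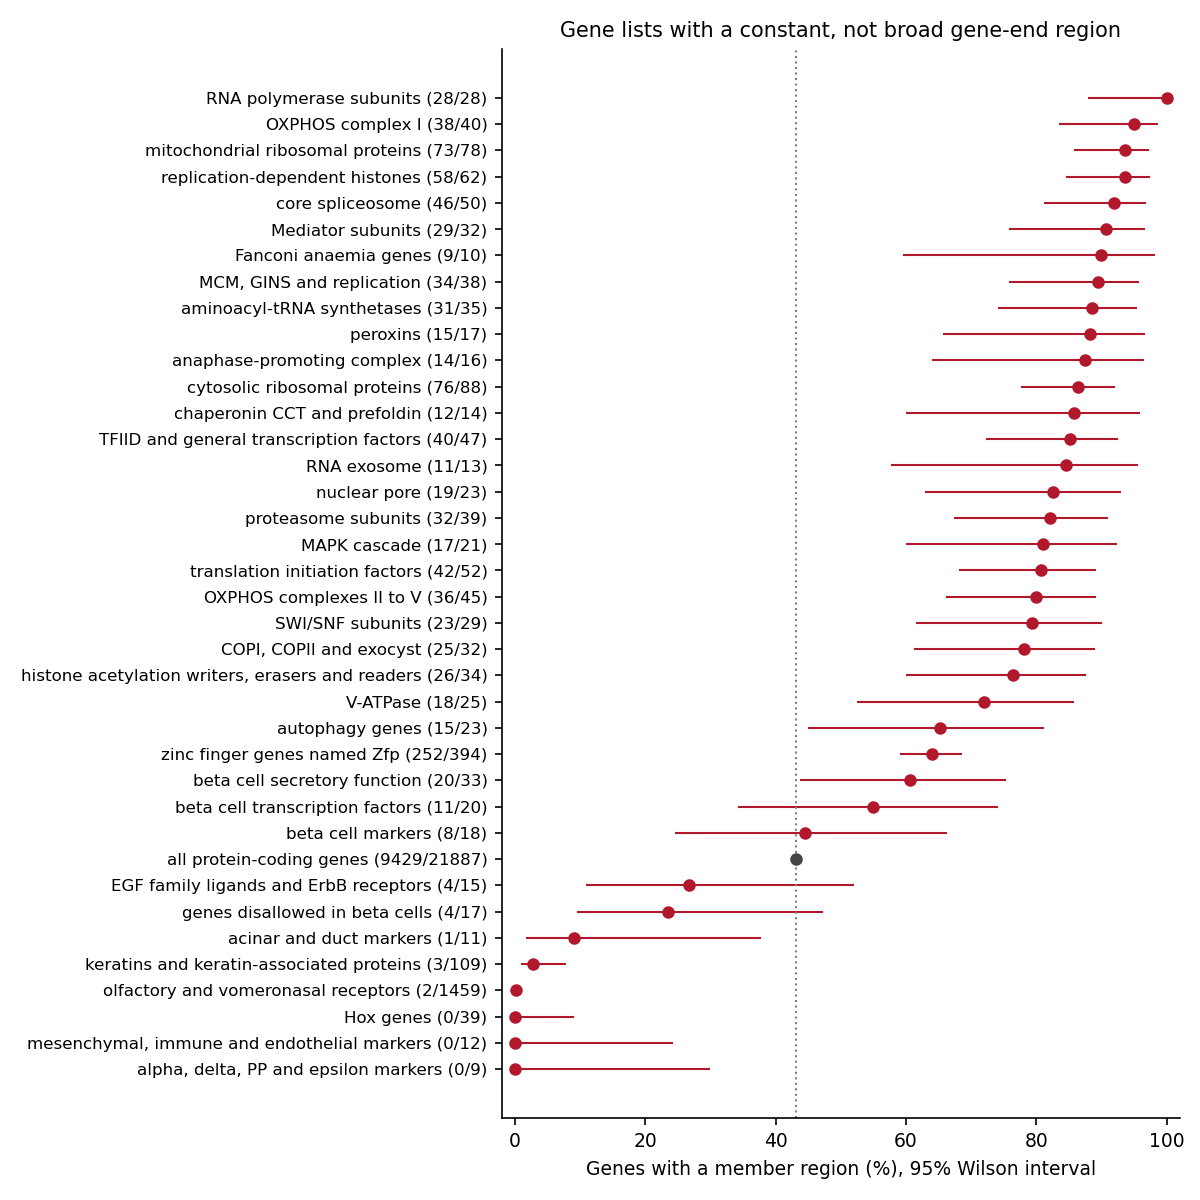
Share of the genes of each list with a member region (horizontal axis, %, points with 95% Wilson intervals; counts in brackets), with all protein-coding genes in grey and as a dotted line at 43.1%. Lists of basal machinery lie between 65.2% (autophagy genes) and 100% (RNA polymerase subunits), beta cell lists lie nearer the line, and lists of other lineages lie at or close to 0.

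Shares of motifs varied between these lists. The lists and motifs named here were picked from a longer set, many counts are small, and no difference was tested. Windows of 52 histone genes with a member were CpG-rich in 23.1%, with a CCAAT box in 86.5% and a TATA motif in 55.8%, whereas ETS was present in 1 of 52. Members at 28 genes of complexes II to V had NRF1 in 7 of 28 and ETS in 39.3%. YY1 was present in 5 of 34 complex I genes (14.7%) and 8 of 64 mitochondrial ribosomal protein genes (12.5%), against 3.99% of all member starts, but in only 1 of 28 genes of complexes II to V (3.57%). Complex I genes in turn had NRF1 in 3 of 34 (8.82%) and ETS in 4 of 34 (11.8%), the second below the 22.1% of all member starts. The ZBTB33 motif was present in 6 of 55 cytosolic ribosomal protein genes (10.9%, against 2.28%). Replication genes had a CCAAT box in 18 of 31 (58.1%) and ETS in 13 of 31 (41.9%). Of 208 zinc finger genes named Zfp with a member start, 52.9% were CpG-rich. Genes of a list can share ancestry and sequence, so they are not independent.

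Each peak carries the authors' fold enrichment, the ratio of reads at the summit over a local background, and each member was ranked by it among the 10846 members of its own list, from 0 to 100. Median fold was 8.77, 7.96 and 8.29 in homozygous, heterozygous and wild-type lists, and the values are not compared between libraries. The ranks were close between lists: the Spearman correlation over members was 0.87 for homozygous and wild type, 0.85 for heterozygous and wild type and 0.84 for homozygous and heterozygous. The 3 ranks lay within 10 points of each other for 3558 members (32.8%) and over 50 points apart for 208 (1.92%). In all 3 lists, 519 members were in the top 10% and 541 in the bottom 10%.

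The members ranked highest in every list were Lars2, Cmss1, Glyctk, Gorab, Aldh4a1, Uchl3, N6amt1 and Galnt10. Uchl3, a ubiquitin hydrolase, had a fold of 21.9 in homozygous, 24.8 in heterozygous and 19.6 in wild-type lists. Glyctk, glycerate kinase, had 26.6, 21.4 and 21.9, and Lars2, the mitochondrial leucyl-tRNA synthetase, had 25.6, 23.1 and 22.5. The Lars2 region (chr9:123461800-123462286) lay 389 bp from the 3′ end of the gene and not at its start, whereas the other 7 lay at gene starts.

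Beta cell genes ranked low by fold. Reads at the summit and the local background were recovered from the deposited fold and p for nearly every peak, and the median member had 91, 63 and 90 summit reads in homozygous, heterozygous and wild-type lists. Ranks by fold and by summit reads went together only weakly within a list (Spearman 0.21, 0.33 and 0.20 over members). The fold divides the summit by the local background, so both parts are given below. Isl1, the beta cell LIM-homeodomain factor, was among the members ranked lowest by fold in every list, with 2.00, 2.27 and 1.88 at chr13:116298721-116299063 near its 3′ end. Its summit had 99, 62 and 122 reads over a background of 49.1, 26.8 and 64.3 reads. At Cmss1, in contrast, 141, 136 and 136 summit reads stood over 4.94, 5.36 and 5.82. The other lowest members were at the histone gene H3c8, Ccr10 and Cntnap1, the Notch target Hes1, and Mus81, each with 70 to 159 summit reads over a background of 29.7 to 73.7.

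Of 18 beta cell markers, 8 had members (44.4%, 24.6% to 66.3%), near the 43.1% of all protein-coding genes. A further 3 had no member but a constant region that was broad in wild type (Iapp, Pcsk1 and Slc30a8). The 8 were Ins1, Ins2, Nkx6-1, Nkx2-2, Neurod1, Mafa, Isl1 and Pcsk2, and among the others Pdx1, Pax6, Slc2a2 and Chga had gene-end regions missing from at least 1 list. G6pc2 and Ucn3 had no gene-end region. The median rank of the 8 by fold was 2.2, 10.9 and 2.53 in homozygous, heterozygous and wild-type lists, but by summit reads it was 63.8, 74.7 and 91.7, against 56.0, 56.1 and 55.8 for all genes with a member. Not all were high by reads: the rank by reads of Nkx2-2 was 37.8 and 46.3 in homozygous and heterozygous lists, and that of Ins1 40.1 in the homozygous list. The 11 beta cell transcription factors with a member had median ranks of 3.86, 10.9 and 5.03 by fold and 37.8, 46.3 and 53.0 by reads, below all genes by both.

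Ins1, an insulin gene, had 77 summit reads in homozygous (exact Poisson interval 60.8 to 96.2), 96 in heterozygous (77.8 to 117.2) and 214 in wild-type lists (186.3 to 244.7) at chr19:52264396-52265603, over backgrounds of 14.7, 18.9 and 48.5. Both knockouts were below wild type in summit reads and in background, and the part of depth in this was not tested. Ins2, the other insulin gene, had 95, 122 and 192 at its member. Nkx2-2 had 74, 60 and 167, and Neurod1, a factor needed for insulin transcription, had 114, 86 and 166. At these 4 genes wild type had the most reads, and its background was also the highest, at 33.1, 34.0 and 70.3 for Ins2, 22.2, 10.1 and 46.4 for Nkx2-2 and 38.2, 29.8 and 49.9 for Neurod1 in homozygous, heterozygous and wild-type lists. The fold did not follow the reads. It was 4.97, 4.88 and 4.34 at Ins1, 2.81, 3.51 and 2.71 at Ins2 and 3.24, 5.52 and 3.54 at Nkx2-2, and only at Neurod1, with 2.93, 2.82 and 3.28, was it highest in wild type. At others wild type did not have the most reads. Nkx6-1 had 169 in homozygous, 42 in heterozygous and 143 in wild-type lists, Mafa had 110, 34 and 93, and Pcsk2, a prohormone convertase, had 161, 129 and 154. The homozygous and wild-type intervals overlapped at Nkx6-1, Mafa and Pcsk2. Ins2, Neurod1 and Pcsk2 also had a constant region broad in wild type. Wild type had the most reads at each: 116, 116 and 204 at Ins2, and 120, 85 and 136 at Neurod1. At the broad Pcsk2 region the reads were 152, 112 and 181. The homozygous and wild-type intervals overlapped at the broad regions of Neurod1 and Pcsk2. The fold at the broad Neurod1 region was 2.86, 2.54 and 2.56, highest in homozygous and unlike its member. Intervals cover counting error only, and the reads are not scaled for depth.

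**Figure D4:**
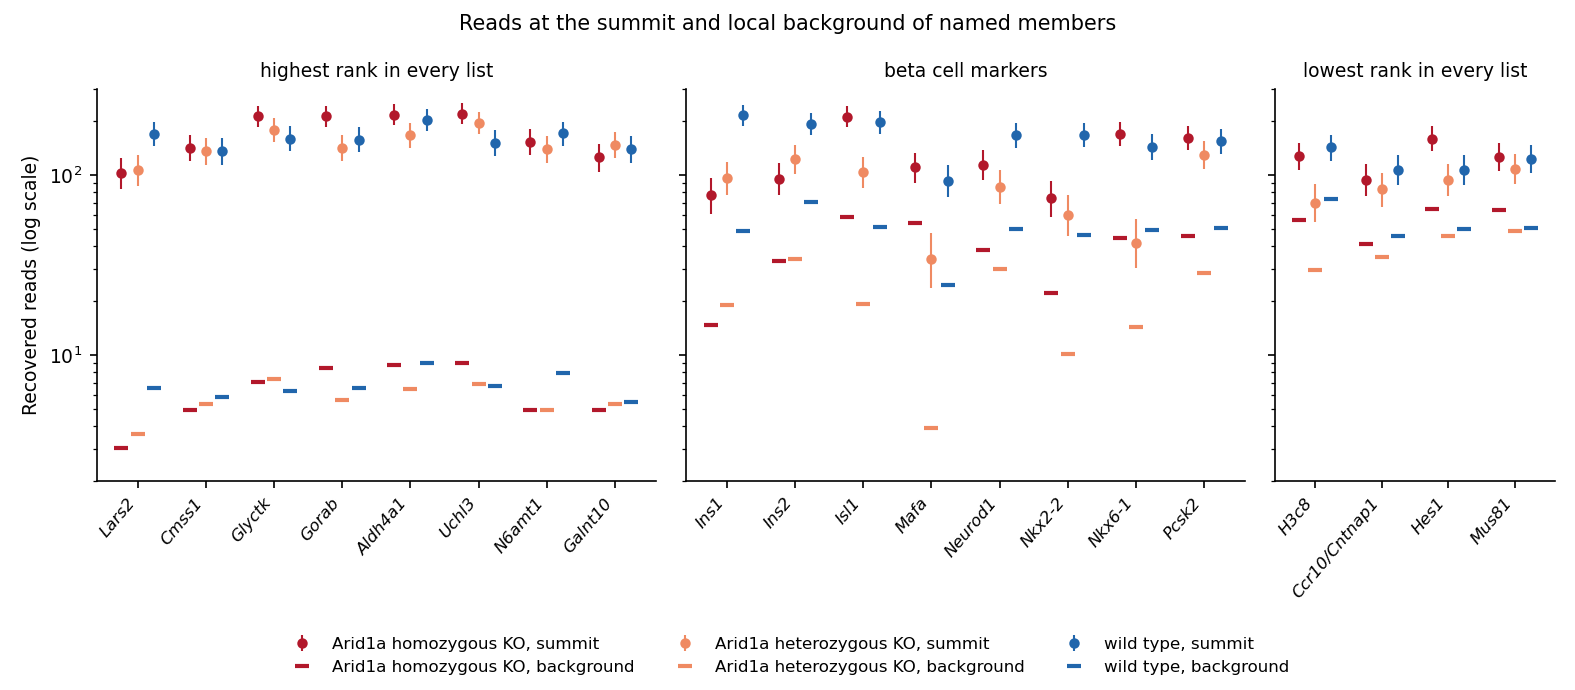
Recovered reads at the summit (points, exact Poisson 95% intervals for counting error only) and local background (dashes), log scale, for the members ranked highest by fold in every list (left), the 8 beta cell markers with a member (middle, the member with the highest wild-type fold where there are several) and members ranked lowest in every list (right, without the lowest-ranked Isl1 member; the Isl1 member in the middle is another region). Summits of the 3 groups overlap, from 34 to 219 reads, whereas the background is 3.02 to 9.06 reads on the left and 29.7 to 73.7 on the right.

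Histone genes showed the same split. Their median rank by fold was 10.9, 8.43 and 4.53 in homozygous, heterozygous and wild-type lists, and by summit reads 92.04, 59.1 and 95.9. H2ac20, for one, had 233 summit reads in homozygous, 93 in heterozygous and 210 in wild-type lists, and H4c3 had 123, 50 and 162. The heterozygous list was lowest at both. H2ac20 and H2ac21 share a region, and histone genes have near-identical copies, between which reads cannot be placed with certainty.

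Several lists of basal genes ranked high by fold, and others did not. The median ranks were 76.9, 79.4 and 85.3 for mitochondrial ribosomal proteins in homozygous, heterozygous and wild-type lists, 78.7, 79.1 and 79.4 for the spliceosome and 81.4, 80.0 and 78.9 for the proteasome, against 61.9, 62.0 and 61.8 for all genes with a member. Cytosolic ribosomal proteins had 66.8, 63.6 and 60.3 and peroxins, the factors of peroxisome assembly, 62.4, 58.3 and 60.9, near the values of all genes. Fanconi anaemia genes had 65.9, 61.9 and 53.7. By summit reads the order was another: mitochondrial ribosomal proteins had 48.4, 48.6 and 50.4, below all genes, and cytosolic ribosomal proteins 82.9, 78.0 and 73.8. Mrps5, of the small mitochondrial ribosomal subunit, had a fold of 20.5, 19.2 and 17.1, and 185, 176 and 191 summit reads. Rps26, a cytosolic ribosomal protein, had 185, 185 and 184 reads and Polr1a, the largest subunit of RNA polymerase I, 226, 195 and 210. The counting intervals of the 3 lists overlapped at each of these genes. The Mrps5 region is shared with Zfp661 and the Polr1a region with Ptcd3.

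Arid1a itself carried 2 members, on either side of its start. At chr4:133756369-133756756 the fold was 2.76, 2.34 and 2.68 and at chr4:133756961-133757648 it was 3.53, 2.98 and 3.18 in homozygous, heterozygous and wild-type lists. The homozygous clone thus kept acetylation at the promoter of the targeted gene, with 164 and 191 summit reads, against 91 and 105 in heterozygous and 128 and 136 in wild-type lists, but acetylation there does not check the knockout. Of 29 SWI/SNF subunit genes 23 had a member (79.3%, 61.6% to 90.2%), against 43.1% of all protein-coding genes. Among the 23 were Smarcb1 (188, 137 and 182 summit reads) and Brd9 (168, 122 and 151). Arid1b, the paralog of Arid1a, had 171, 94 and 136, with a widest peak of 2037, 966 and 1299 bp.

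The EGF family is named in the title of the series. Of 15 ligand and receptor genes, 4 had one (26.7%, 10.9% to 52.0%), an interval that holds the 43.1% of all protein-coding genes: the receptors Erbb2 and Erbb3 and the ligands Hbegf and Tgfa. Erbb2 had 59, 58 and 73 summit reads in homozygous, heterozygous and wild-type lists and Erbb3 59, 37 and 60. Hbegf had 48 (35.4 to 63.6), 41 and 32 (21.9 to 45.2), with overlapping intervals. Tgfa had 23, 18 and 53 reads over a background of 1.88, 1.73 and 13.8, so that its fold was 8.33, 6.95 and 3.64 while its reads were highest in wild type. Of the other 11 genes, among them Egf and Egfr, 4 had a gene-end region missing from at least 1 list and 7 had none. The MAPK cascade downstream had members at 17 of 21 genes (81.0%, 60.0% to 92.3%), such as Map2k2 (237, 195 and 205 reads).

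Of 20 beta cell transcription factors 11 had a member (55.0%, 34.2% to 74.2%), and of 33 genes of secretory function 20 (60.6%, 43.7% to 75.3%), against 43.1% of all protein-coding genes. The first interval holds that share. The secretory genes included the vesicle protein Vamp2 (200, 145 and 215 reads). Foxa1, a pioneer factor, had 153 summit reads in homozygous (129.7 to 179.3), 96 in heterozygous (77.8 to 117.2) and 39 in wild-type lists (27.7 to 53.3). Its fold was 8.46, 7.75 and 6.31 and its widest peak 1873, 1514 and 1496 bp. Rfx6, an islet factor, had 32, 27 and 15 reads. In both genes wild type was lowest, with intervals apart from both knockouts at Foxa1 and overlapping at Rfx6. The Foxa1 region is shared with Ttc6. Of 17 genes known to be silenced in mature beta cells, 4 had a member (23.5%, 9.56% to 47.3%), an interval that also holds the 43.1%. The 4 were Slc16a1, Acot7, Lmo4 and Zdhhc9. Slc16a1, a lactate transporter, had 141, 61 and 89 reads.

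Homozygous minus wild type was the first comparison of ranks. A rise of over 25 points was seen at 509 members (4.69%) and a fall of over 25 points at 537 (4.95%). The median size of a shift was 7.81 points. With 1 library each these are differences between clones. Of the 509 members that rose by fold, 347 (68.2%) were also higher by rank of summit reads and 99 by over 25 points, and of the 537 that fell, 415 (77.3%) were also lower by reads and 90 by over 25 points.

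Among members whose shift had the same sign by −log10 q, the largest rises by fold were at Hadh, Mrpl58, Ormdl3 and Ctr9. Hadh, a mitochondrial enzyme of fatty acid oxidation with high activity in beta cells, had a fold of 12.4, 8.88 and 3.54 in homozygous, heterozygous and wild-type lists, at chr3:131271666-131272070. Its summit had 47, 29 and 69 reads and its background 2.86, 2.38 and 18.8. By reads Hadh was therefore not higher in homozygous (34.5 to 62.5) than in wild type (53.7 to 87.3), and the background was higher in wild type. Mrpl58 (115, 128 and 141 reads over 6.22, 18.8 and 24.8) had the same pattern, as did Ormdl3 (57, 61 and 73 over 3.74, 7.54 and 17.8) and Ctr9 (135, 145 and 155 over 8.16, 16.1 and 26.3). All 4 rises turned into falls when ranked by reads, each of less than 25 points. At all 4 the counting intervals of the homozygous and wild-type reads overlapped, and the reads are not scaled for depth.

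The largest falls were at Trim21, Nlrx1, Rab22a and Spaca9. Trim21, a cytosolic antibody receptor, had 17 summit reads in homozygous (9.90 to 27.2), 19 in heterozygous and 63 in wild-type lists (48.4 to 80.6), at chr7:102564979-102565543. Nlrx1, a mitochondrial member of the NOD-like receptor family, had 17, 58 and 61 reads (homozygous 9.90 to 27.2, wild type 46.7 to 78.4). Rab22a, an endosomal GTPase, had 37, 74 and 78, and Spaca9 17, 35 and 76. Here summit reads and fold moved the same way, with both knockouts low at Trim21 and the homozygous list alone low at Nlrx1 and Rab22a.

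**Figure D5:**
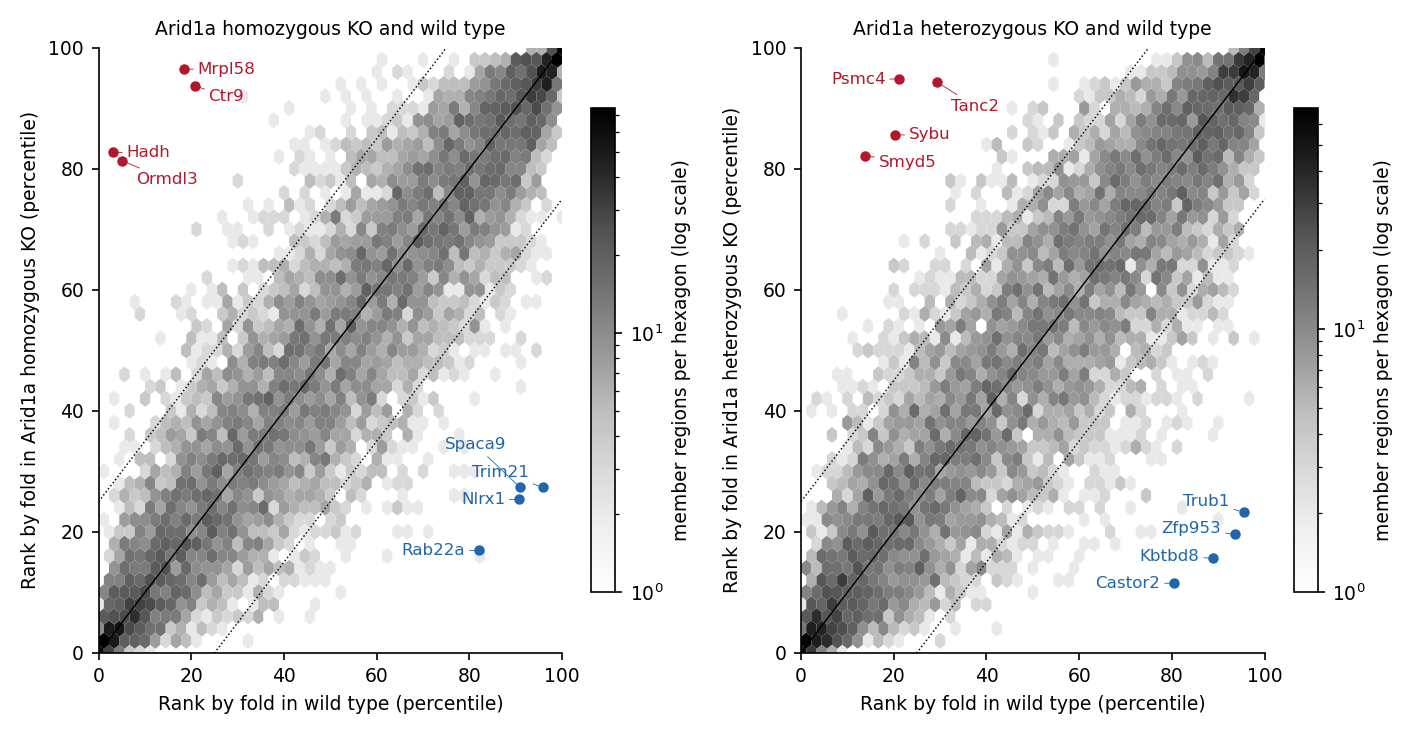
Percentile rank by fold of each member in the homozygous (left) and heterozygous (right) knockout list against its rank in wild type, as hexagons shaded by the number of members (log scale); the solid line is equal rank and the dotted lines are 25 points to either side. Red and blue points are the 4 largest rises and falls, Hadh, Mrpl58, Ormdl3 and Ctr9 against Trim21, Nlrx1, Rab22a and Spaca9 on the left and Psmc4, Smyd5, Sybu and Tanc2 against Zfp953, Kbtbd8, Trub1 and Castor2 on the right.

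Heterozygous minus wild type gave 580 rises (5.35%) and 657 falls (6.06%) of over 25 points. Rises were 46.9% of these shifts, and 34.8% of the 273 shifts over 40 points. Of the rises 432 (74.5%) and of the falls 548 (83.4%) had the same sign by reads. Psmc4, a proteasome ATPase, rose by fold (11.9, 13.7 and 5.77 in homozygous, heterozygous and wild-type lists) but had 97, 60 and 88 reads over backgrounds of 7.24, 3.46 and 14.4. Tanc2 had 125, 111 and 136 reads with a fold of 10.7, 13.5 and 6.50. Smyd5, a SET-domain methyltransferase, had 28, 36 and 15 reads and Sybu 32, 32 and 17, so that these rose by both measures. The falls were at Zfp953 (42, 14 and 47 reads), Kbtbd8 (58, 13 and 46), Trub1, a tRNA pseudouridine synthase (25, 15 and 55), and Castor2, an arginine sensor homologue (142, 79 and 146). At Zfp953 and Kbtbd8 the homozygous list stood with wild type and the heterozygous one alone was low, outside the counting intervals of both (Kbtbd8 6.92 to 22.2, against 33.7 to 61.4 in wild type).

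Homozygous minus heterozygous gave 696 rises (6.42%) and 601 falls (5.54%). Rises were 53.7% of these shifts, and 59.2% of the 311 shifts over 40 points. The 3 comparisons share libraries and are not independent. Kbtbd8 and Zfp953 were again among the largest rises, with Sel1l, a factor of endoplasmic reticulum quality control (104, 47 and 61 reads in homozygous, heterozygous and wild-type lists), and a region at 3′ ends shared by Duox1 and Shf (126, 80 and 130). The largest falls were at Uvrag, Ezr, Nlrx1 and a region at Ppp1r9a (12, 35 and 37 reads). Uvrag, an autophagy gene, had 173, 90 and 134 summit reads over backgrounds of 32.4, 6.22 and 12.2, and Ezr, which links membrane and actin, had 157, 70 and 130 over 25.5, 4.84 and 11.4. Both fell by fold but were higher by reads.

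Among gene lists, each gene was represented by the member whose lowest rank over the 3 lists was highest. Over all 9429 genes, homozygous minus wild type gave 5.06% rises and 4.85% falls, heterozygous minus wild type 5.67% and 6.34%, and homozygous minus heterozygous 7.1% and 5.62%. The zinc finger genes named Zfp, many of them KRAB repressors, had 252 genes with a member of 394 (64.0%). In heterozygous minus wild type 7 of them rose and 29 fell, in homozygous minus wild type 4 rose and 11 fell, and in homozygous minus heterozygous 30 rose and 17 fell. Zfp genes often lie in clusters of similar sequence, between which reads cannot be placed with certainty. The heterozygous list had the least covered length, and its part in these counts was not tested. For the mitochondrial ribosomal proteins the counts were 1 and 0 in homozygous minus wild type and 1 and 3 in heterozygous minus wild type. In homozygous minus heterozygous they were 5 and 0. For the spliceosome the counts were 1 and 0, 3 and 1, and 0 and 5, in the same order of comparisons.

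Peaks in members were narrower in the heterozygous list. The widest peak had a median of 676 bp in homozygous, 605 bp in heterozygous and 717 bp in wild-type lists, the last limited by the rule. The median ratio within a member was 0.957 for homozygous over wild type, 0.885 for heterozygous over wild type and 1.07 for homozygous over heterozygous, close to the 0.956, 0.869 and 1.09 at the 8026 constant regions away from gene ends. A member held a single peak in 93.5%, 93.0% and 94.3% of cases. The order of widths is also that of covered length per list, and the part of depth in it was not tested.

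A peak of 1500 bp or wider was found at 167 members (1.54%) in the homozygous and 64 (0.590%) in the heterozygous list, with 23 in both. Among all 18486 constant regions with none so wide in wild type, the shares were 1.83% and 0.655%. The widest in homozygous were at Plk3, a stress-response kinase (2768 bp, with 687 in heterozygous and 718 in wild type), Celf4 (2495, 970 and 1117) and Cxxc5 (2422, 500 and 1147). The widest in heterozygous were at a region shared by Acaa1a and Myd88 (1326 bp in homozygous, 2169 in heterozygous, 1185 in wild type), at Tent5a (1430, 2141 and 915) and at Cebpb, a C/EBP transcription factor (1517, 2076 and 1160). A wide peak in one list can be several peaks in another, since a caller may join or split neighbouring maxima.

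Members were spread over the autosomes, with 35.6% (chromosome 6) to 51.0% (chromosome 8) of the genes of each. The X chromosome had members at 293 of 966 genes (30.3%, 27.5% to 33.3%), below the share of each autosome, although its interval overlapped that of chromosome 6 (32.9% to 38.5%). Without olfactory and vomeronasal receptor genes the share was 30.6% on X, against 38.5% on chromosome 6, the lowest autosome. The Y chromosome had 1 of 256. Median rank shifts per chromosome were small: on the autosomes they lay between -2.33 and 1.38 points over the 3 comparisons. On X the median was -0.05 for homozygous minus wild type, -1.89 for heterozygous minus wild type and 2.40 for homozygous minus heterozygous, over 329 regions.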

How the data were processed

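H3K27ac ChIP-seq peak lists on mm10 were used, 1 for each of 3 clones of MIN6 cells. The submitters' processing notes name MACS2, bcl2fastq and mm10. Not given in the sources used here are their versions, the aligner, the control sample and the threshold for peaks. Each deposited list gives the positions and summit of a peak, its fold enrichment over local background (a ratio), the −log10 p-value and −log10 q-value, and a score, which in the deposited lists equalled 10 times the −log10 q-value, rounded down, for 34295 of 34298 homozygous, 31365 of 31365 heterozygous and 41489 of 41490 wild-type peaks. GAL4 stands in the names of the wild-type peaks, and the labels do not say what it means.

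Peaks sharing at least 1 base or touching were merged in Python 3.11.15 (numpy 2.4.6, pandas 2.3.3, scipy 1.17.1, matplotlib 3.10.9), and all 52938 regions were identical to those of bedtools 2.31.1. Gene ends, promoter windows and strand came from RefSeq tables of GRCm38.p6; 4395 of 21887 protein-coding genes had no window and hence no strand. Summit reads and background were recovered as the whole count and rate that gave both the deposited fold, taken as (reads + 1) over (background + 1), and the deposited Poisson −log10 p within 0.001, for 34297, 31363 and 41489 peaks of the homozygous, heterozygous and wild-type lists. The merge, ranks and recovery were tested on simulated data.

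The members, gene lists and motifs were chosen with earlier results of these data known. With 1 library per genotype no test was made. Wilson and exact Poisson 95% intervals cover counting error only, and reads without molecular identifiers are not independent molecules. Named members were the 8 highest and 5 lowest by rank in every list, the 4 largest rises and falls per pair that kept their sign by −log10 q, up to 3 genes per list, the 3 widest per knockout list, those next to the limits, Arid1a and cell type markers; predicted genes could be skipped. Alternatives were the distance to a gene end, the width limit, stricter q-values and total covered length. Lists were also cut to an equal number of peaks, keeping those with the highest −log10 q. Others were the rank limit, the highest summit only, members with 1 peak in every list, regions covering the start and gene starts only. The last were the shared length behind a merge, leaving out the top 0.1% by fold, and ranks by −log10 q or by summit reads.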

Additional observations from a re-analysis of the deposited data

How the results depend on the processing

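No paired analysis was possible because each genotype had 1 library; for the same reason no library could be left out. The number of members ran from 8356, with a width limit of 1000 bp, to 11475, with gene ends within 2 kb. Of the summary values under the alternatives, 52 stayed within their interval or within 1.5 times and 10 moved. Members at gene starts were 98.7% within 500 bp and 97.4% within 2 kb, against 98.3%. The CpG ratio was 0.803 with a width limit of 1000 bp, against 0.810. With lists cut to an equal number of peaks, 93.9% of members in the homozygous and 95.3% in the wild-type list held a single peak. By total covered length the median width was 700 bp in homozygous and 627 bp in heterozygous lists. With a limit of 40 points, 230 members shifted in homozygous minus wild type, 273 in heterozygous minus wild type and 311 in homozygous minus heterozygous, against 1046, 1237 and 1297. Single gene lists and motifs were counted apart from these summary values. With a width limit of 2000 bp, 6 of 37 gene-list shares moved, among them the autophagy genes at 91.3%, against 65.2%. Where a region covers the start, 4 of 13 motif shares moved. The cause was not tested.

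Ranking by summit reads was chosen after seeing the data. It reversed 7 named shifts. In homozygous minus wild type these were Hadh (-14.9 points, against 79.7 by fold), Mrpl58 (-17.9, against 78.1), Ormdl3 (-10.8, against 76.2) and Ctr9 (-12.5, against 73.0). In heterozygous minus wild type it was Psmc4 (-2.43, against 73.6), and in homozygous minus heterozygous Uvrag (15.2, against -76.6) and Ezr (27.6, against -68.1). At each of them the background reads differed between the lists as given above. Low summit counts, such as 12 to 19 reads, limit what single members show.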
